A study of Mus musculus with 36 samples.

Results

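Tumour-associated macrophages (TAMs) of *muMt*-/- mice that carried a GABA pellet were compared with TAMs of WT mice, to ask which genes still differed from WT under GABA. The members are the 6 libraries labelled as TAMs of GABA-treated *muMt*-/- mice and the 6 labelled as TAMs of WT mice, picked out by their labels. They are 12 of the 36 libraries in the series and 12 of its 18 TAM libraries. The other TAM libraries come from 6 *muMt*-/- mice without GABA, and the remaining 18 libraries are CD8+ T cells from the same kinds of mice.

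Each library was made from 100 cells of 1 mouse, sorted as CD45.2+CD11b+F4/80 hi on day 7 after intradermal inoculation of MC38, a mouse colon adenocarcinoma line. *muMt*-/- mice lack mature B cells and were on the C57BL/6J background, whereas WT mice were C57BL/6J or C57BL/6N. Mice of both sexes aged 2 to 5 months were used in the study, and neither the sex nor the substrain of single mice was given. Pellets were placed under the skin 1 day before the tumour. The labels name no treatment for the WT and untreated *muMt*-/- groups, which the study's methods describe as given a placebo pellet. The series has no TAM library of WT mice with GABA, so genotype and pellet differ together in the main comparison and their parts cannot be told apart.

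Macrophages in tumours take up debris, present antigen, and supply cytokines, growth factors and metabolic enzymes that can restrain or help T cells. GABA, best known as an inhibitory neurotransmitter, is made from glutamate and acts through ion channels (GABAA receptors) and G-protein-coupled receptors. B cells are among the immune cells that can make and release it.

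WT libraries held 206394 to 304100 molecules (median 242756) and GABA-treated *muMt*-/- libraries 151856 to 262606 (median 192775). The ratio of means was 0.823, and the ranges overlapped (two-sided exact permutation test, p = 0.0628, n = 6 and 6). Between 10151 and 10895 genes were detected in WT and between 9663 and 10755 in GABA-treated libraries, a ratio of 0.977 (exact permutation test, p = 0.229). In bulk libraries of this kind, fewer cells of a type and less RNA per cell cannot be told apart.

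All 20 macrophage markers were measured, with *Ctss*, a lysosomal protease, as the most abundant. Their summed normalized number of molecules (counts divided by DESeq2 size factors) ran from 3368 to 4347 in WT (median 3870) and from 2330 to 3754 in GABA-treated libraries (median 3491), so that the groups overlapped. The defining B cell genes *Cd79a* and *Pax5* had 0 molecules in all 18 TAM libraries, and the summed B cell markers reached at most 2.91 in WT and 2.88 in GABA-treated libraries. Of 10 T cell markers, 0 passed the filter for testing, and their sum reached at most 7.89. Epithelial markers summed to 6.54 to 9.47 in WT and 5.31 to 20.9 in GABA-treated libraries, with *Epcam*, *Krt18*, *Krt19* and *Krt20* at 0. Nearly all of this sum came from *Cdh1*, at 6.54 to 9.47 in WT and 5.31 to 20.2 in GABA-treated libraries.

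Some libraries stood apart from their group. GABA-treated replicate 1 had the lowest summed macrophage markers of the 12 libraries, and *Rn45s*, the ribosomal RNA precursor, took 19.9% of its molecules, where the median of its group was 8.68% and that of WT 9.35%. Stromal markers, with the collagen gene *Col3a1* as the most abundant, summed to 985 in WT replicate 6 against a WT median of 77.0, and to 500 in GABA-treated replicate 2 against a median of 117. Nuclear RNA, with *Malat1* as the most abundant, summed to 594 to 722 in WT and 650.4 to 1077 in GABA-treated libraries, with replicate 1 the highest. *Xist* had 0 molecules in every TAM library, while the Y-linked *Ddx3y* had 8.53 to 24.7 in WT and 4.99 to 15.9 in GABA-treated libraries. The part of these differences in the results below was not tested, apart from the values given without single libraries.

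Of 9469 genes with a mean normalized number above 1, 7 differed between GABA-treated *muMt*-/- and WT TAMs at an adjusted p under 0.05 in edgeR's quasi-likelihood test with Benjamini-Hochberg adjustment (0.0739% of the genes tested). They were 4 higher genes (0.0422%), *Slc7a2*, *Mir6240*, *Gas5* and *Clec7a*, and 3 lower ones (0.0317%), *BC018473*, *Mir6236* and *Ptpa*. In the same fit, 194 genes (2.05%) differed between placebo-treated *muMt*-/- and WT TAMs. These comparisons share the WT libraries, so their values are given side by side only. An unadjusted p under 0.05 was reached by 665 genes against WT (7.02%). Normalized numbers did not overlap between the 6 and the 6 libraries for 54 genes (0.57%), of which 20 were higher (0.211%) and 34 lower (0.359%) in GABA-treated mice. The number of genes at an adjusted p under 0.05 against WT depended on the processing. It was 63 without the filter, 14 with DESeq2's Wald test, 4 in a fit to the 12 libraries alone, and 2 with edgeR's filterByExpr or a mean above 5. With log2 molecules as a covariate 7 genes passed, of which 3 were shared (*BC018473*, *Mir6236* and *Slc7a2*). With 1 of the 12 libraries left out at a time, *BC018473* and *Mir6236* always passed, while the other 5 calls were lost in 7 to 11 of 12 fits. The number of genes was then 2 to 9: it was 2 without WT replicates 3 or 6 or GABA-treated replicates 2 or 3, and 3 without WT replicates 1, 2 or 4 or GABA-treated replicate 1.

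The lncRNA gene *BC018473* (chromosome 11 of mm10, 116752167 to 116757883) had the smallest p. Its normalized number was 82.1 to 123 in WT libraries, with a median of 114, and 5.05 to 16.3 with GABA, with a median of 11.8. Every GABA-treated library lay below every WT library, and placebo-treated *muMt*-/- libraries, at 31.3 to 84.8, lay above every GABA-treated library and overlapped with WT, with replicate 1 above the lowest WT library. The log2 fold change was -3.31 (standard error 0.25, 95% interval -3.83 to -2.80, edgeR adjusted p = 1.6e-12), and that of placebo-treated *muMt*-/- against WT mice was -0.93. In CD8+ T cells the gene was near the floor, at 0.751 to 9.15 in WT and 3.12 to 22.9 in GABA-treated mice.

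*Slc7a2* (chromosome 8, 40862341 to 40922070) encodes a transporter that brings arginine and other cationic amino acids into the cell. It stood at 3.69 to 15.3 in WT (median 9.82) and 18.3 to 27.4 in GABA-treated libraries (median 23.8). The groups did not overlap, and the placebo-treated group reached higher, to 46.0. The log2 fold change was 1.31 (standard error 0.27, 95% interval 0.77 to 1.85, edgeR adjusted p = 0.0386), beside 1.80 without GABA. It was the only call among 16 tested genes of arginine transport and metabolism, whose median log2 fold change was 0.05, against 0.02 over all genes tested. With edgeR's filterByExpr the median of arginine transport and metabolism was 0.41. The cystine transporter gene *Slc7a11* had a log2 fold change of 1.18 (edgeR adjusted p = 0.367).

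*Clec7a* (chromosome 6, 129461591 to 129472785) encodes Dectin-1, the receptor of phagocytes for fungal beta-glucan. It stood at 79.4 to 159 in WT (median 101) and 155 to 393 in GABA-treated libraries (median 169), so that the groups overlapped slightly. The highest values came from WT replicate 5 and GABA-treated replicate 1. The log2 fold change was 0.97 (standard error 0.20, 95% interval 0.56 to 1.38, edgeR adjusted p = 0.0456), beside 1.35 without GABA. Without GABA-treated replicate 1 it was 0.71 (edgeR adjusted p = 0.18, where the alternatives ran from 2.13e-05 to 0.261). It was the only call among 12 tested C-type lectins and among 9 tested genes of Dectin-1 signalling. The median log2 fold change was 0.00 for the lectins and 0.09 for the signalling genes. *Fcer1g*, the adaptor chain of several activating receptors, was the most abundant of the latter.

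*Gas5* (chromosome 1, 161034601 to 161038539) is a noncoding transcript whose introns hold snoRNAs, the small RNAs that guide chemical modification of ribosomal RNA. It overlaps *Snord47* and *Zbtb37*, among others, and molecules from overlapping genes may not be fully separated by the counting. Its normalized number was 25.4 to 55.4 in WT (median 40.8) and 59.0 to 131 in GABA-treated libraries (median 66.3), with no overlap between the groups. The log2 fold change was 0.95 (standard error 0.20, 95% interval 0.55 to 1.35, edgeR adjusted p = 0.0456), beside 0.33 without GABA. Of 13 tested snoRNA host transcripts, 0 others passed, and the list's median was 0.01. GABA-treated replicate 1 gave the value of 131, and without this library the log2 fold change was 0.75 (edgeR adjusted p = 0.155, where the alternatives ran from 0.000244 to 0.199).

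*Ptpa* (chromosome 2, 30416050 to 30447807) encodes the activator of the protein phosphatase PP2A. It stood at 15 to 21.8 in WT (median 19.9) and 5.31 to 13.3 in GABA-treated libraries (median 8.03). All GABA-treated libraries lay below the lowest WT library. The log2 fold change was -1.11 (standard error 0.25, 95% interval -1.61 to -0.61, edgeR adjusted p = 0.0477), beside -1.45 without GABA. The call was lost in 11 of 12 fits without 1 library and in 16 of 21 alternatives in all, with an adjusted p from 0.00361 to 0.227. It was the only call among 16 tested PP2A subunits and regulators, whose median was -0.05.

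*Mir6236* and *Mir6240* are annotated as miRNA genes, and their counts are of molecules mapped to the gene and not of mature miRNAs. *Mir6236* (chromosome 9, 110281287 to 110281409) stood at 60.3 to 122 in WT (median 103) and 22.9 to 59.7 in GABA-treated libraries (median 42.5). The groups did not overlap, and its log2 fold change was -1.21 (standard error 0.20, edgeR adjusted p = 0.00219), beside -0.92 without GABA. *Mir6240* (chromosome 5, 114851948 to 114852064) stood at 11.6 to 38.8 in WT (median 18.6) and 20.8 to 135 in GABA-treated libraries (median 51.5). These ranges overlapped, and placebo-treated libraries reached 90.1 to 202. Its log2 fold change was 1.60 (standard error 0.33, edgeR adjusted p = 0.0386), beside 2.77 without GABA. The highest GABA-treated values were those of replicate 1 (135) and replicate 3 (96.5), which also had the most *Rn45s* of that group (40050 and 24562). Without replicate 1 the log2 fold change of *Mir6240* was 1.27 (edgeR adjusted p = 0.155, where the alternatives ran from 3.11e-12 to 0.404). The part of *Rn45s* in this difference was not tested. *Rn45s* stood at 12970 to 21758 in WT and 12713 to 40050 in GABA-treated libraries, a log2 fold change of 0.21 (edgeR adjusted p = 0.888). Both genes belong, with *Rn45s*, to the list of rRNA loci and small structured RNAs, in which 4 were tested. Of these 1 was called higher and 1 lower, beside 0.0422% and 0.0317% of all genes tested. The list was chosen with earlier results of these data known, so this count is no result about it. Mature sequences from RefSeq (GRCm38.p6) are printed for these 2 loci, which moved in opposite directions, with the seed (bases 2 to 8) in capitals.
mmu-miR-6240, chromosome 5, 114851973 to 114851998, plus strand: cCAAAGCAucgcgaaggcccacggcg
mmu-miR-6236, chromosome 9, 110281353 to 110281371, plus strand: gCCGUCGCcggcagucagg
The seeds differ.

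**Figure D1:**
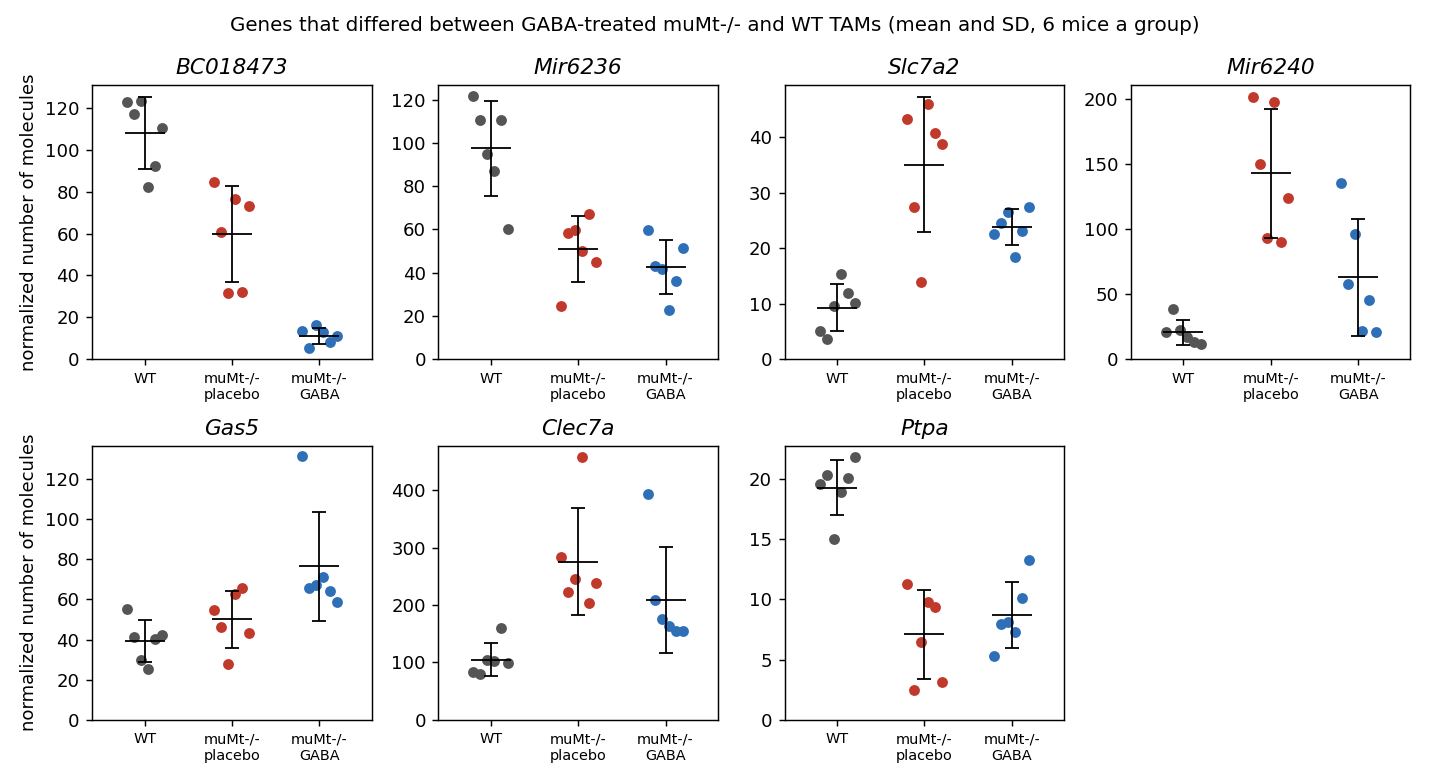
Normalized number of molecules (vertical axes) of the 7 genes that passed, in TAMs of WT, placebo-treated and GABA-treated *muMt*-/- mice; each point is 1 mouse, the long bar the mean and the error bar the SD of 6 mice. *BC018473* in GABA-treated mice lies at 5.05 to 16.3, below both other groups.

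Among genes that missed the threshold, *Ccl24*, a chemokine for eosinophils, had the smallest p of those with a mean of at least 5. It stood at 0 to 5.02 in WT (median 0.821) and 0 to 27.9 in GABA-treated libraries (median 6.28), a log2 fold change of 2.77 (standard error 0.74, edgeR adjusted p = 0.0734). *Klf9*, *Gdap10*, *Snora75*, *Sf3b4*, *Gas7*, *Tiparp*, *Snord22*, *Kif3a* and *Eps8* followed among the higher genes, with log2 fold changes from 0.78 to 1.66 and edgeR adjusted p from 0.159 to 0.272. GABA-treated replicate 1 had the highest value of its group for *Ccl24*, *Gdap10*, *Snora75*, *Sf3b4*, *Gas7*, *Snord22*, *Kif3a* and *Eps8*, and its part in these differences was not tested. *Gdap10* lies within *Nampt*, *Snora75* within *Ncl* and *Snord22* within *Snhg1*, so that their counts are uncertain. *Kif3a* lies on chromosome 11 and *Ccdc36* on chromosome 9, yet their group means were nearly equal, at 187 and 186 in WT and 324 and 322 in GABA-treated mice, so that *Kif3a* is uncertain.

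Genes lower without passing were *Rpl28*, *Lyz2*, *Lyz1*, *Cxcl14*, *Igfbp7*, *Kif20a*, *Ccna2*, *Rpl29*, *Cd52* and *Cd68*. *Rpl28*, a protein of the large ribosomal subunit, stood at 145 to 217 in WT and 43.8 to 147 in GABA-treated libraries (log2 fold change -0.85, standard error 0.20, edgeR adjusted p = 0.0909). *Lyz2*, the macrophage lysozyme, had 112 to 190 and 54.4 to 141 (log2 fold change -0.74, edgeR adjusted p = 0.176). Lysozyme gene *Lyz1* is a near-identical neighbour and its molecules cannot be fully separated from those of *Lyz2*. *Cd68*, a glycoprotein of macrophage lysosomes, stood at 63.9 to 102 and 31.9 to 69.0, and *Cd52*, a small surface glycoprotein of leukocytes, at 320 to 406 and 102 to 284. *Cd52* did not overlap between groups, whereas *Cd68* did. For *Rpl28*, *Lyz2*, *Lyz1*, *Rpl29*, *Cd52* and *Cd68* the lowest GABA-treated library was replicate 1, and its part in these differences was not tested. *Igfbp7* rests on WT replicate 1 at 64.0 and WT replicate 6 at 24.7, with a WT median of 0.363 and a median of 0 with GABA, so no fold is given.

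**Figure D2:**
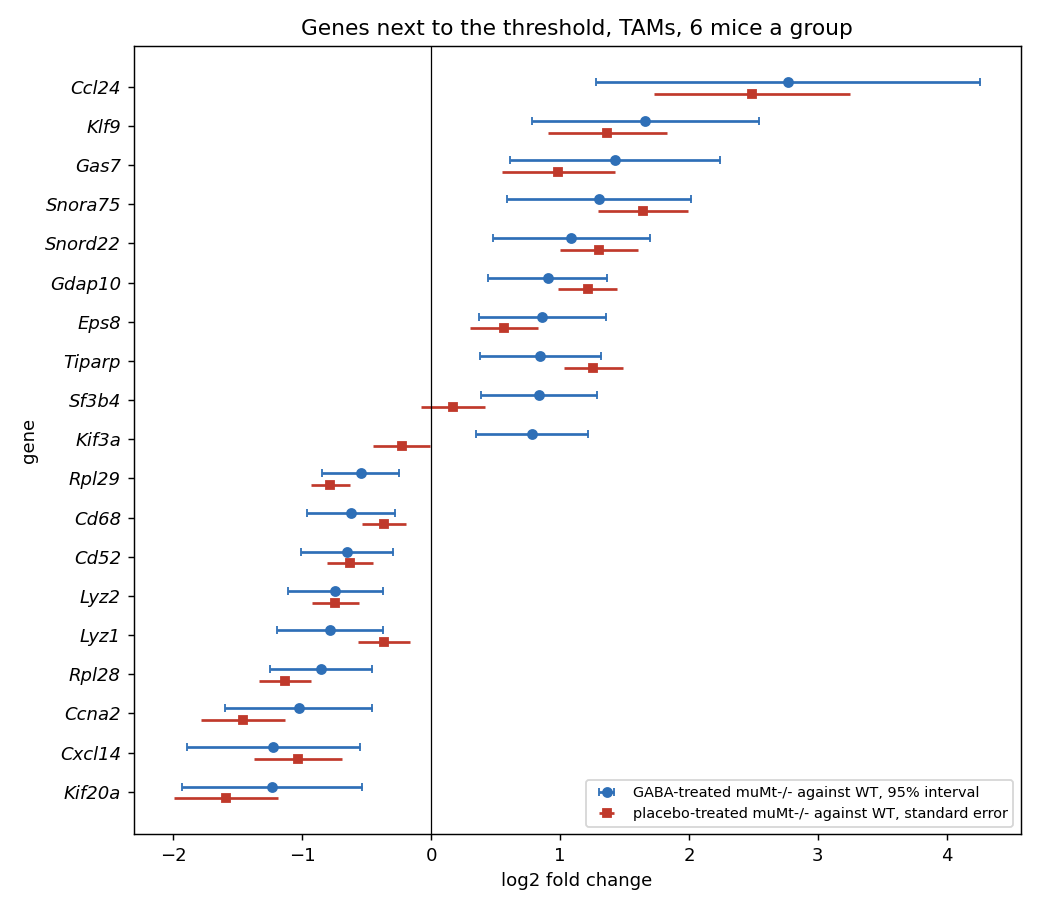
Log2 fold change against WT (horizontal axis) of genes next to the threshold, without *Igfbp7*, with the 95% interval for GABA-treated *muMt*-/- TAMs (circles) and the standard error for placebo-treated *muMt*-/- TAMs (squares), 6 mice a group. Of the genes drawn, *Ccl24*, at 2.77, has the widest interval.

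Among genes with an adjusted p under 0.05 between placebo-treated *muMt*-/- and WT TAMs and a mean of at least 5, the 5 largest rises and 5 largest falls were then read in GABA-treated mice. Of these 10 genes, *Mir6240* (1.60 beside 2.77 without GABA) and *Slc7a2* (1.31 beside 1.80) passed against WT under GABA as well, and the other 8 did not. *Ccl24* had a log2 fold change of 2.77 beside 2.49, and *Kif20a* -1.23 beside -1.59. *Thbs1*, thrombospondin 1, an inhibitor of blood vessel growth, stood at 23.1 to 53.7 in WT and 25.4 to 101 in GABA-treated libraries, and its log2 fold change was 0.46 (95% interval -0.12 to 1.03), beside 1.72 without GABA. GABA-treated replicate 1 gave the 101 of *Thbs1*, and the next highest library of that group had 71.5. *Lyst*, a regulator of lysosome size, had 0.98 (95% interval -0.02 to 1.97) beside 1.96. *Mpv17l* had 0.01 (95% interval -0.62 to 0.64) beside -1.53, and *Phf5a*, a splicing factor subunit, -0.53 beside -1.47. *Asf1b*, a histone chaperone of replication, had -0.76 (95% interval -1.37 to -0.16) beside -2.08, and *Mad2l1*, a spindle checkpoint protein, -0.81 beside -1.89. A missed threshold does not show that the 8 genes are equal to WT.

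Genes singled out by the study in these TAMs did not pass against WT under GABA. Without GABA, *Atp5d* and *Atp5g2* passed against WT (edgeR adjusted p = 0.0354 and 0.0308). *Il1b*, *Tnfrsf1b*, *Ifngr1* and *Ndufb2* did not pass there (edgeR adjusted p = 0.0797, 0.162, 0.122 and 0.0652). *Il1b*, the inflammatory cytokine, stood at 121 to 250 in WT and 101 to 232 in GABA-treated libraries, with a log2 fold change of 0.00 (95% interval -0.39 to 0.39). For *Tnfrsf1b*, a TNF receptor, it was 0.02 (95% interval -0.39 to 0.43), and for *Ifngr1*, a chain of the interferon-γ receptor, -0.05 (95% interval -0.42 to 0.32). The respiratory chain and ATP synthase genes *Atp5d*, *Atp5g2* and *Ndufb2* had -0.19, -0.03 and -0.15. Their ranges overlapped with WT in every case. Across genes with a mean of at least 5, 80.1% had a 95% interval that lay within a log2 fold change of 1 in either direction, and over all genes tested 48.9% did.

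Gene lists were described by their counts and medians, without a test. Of 42 lists, 7 held a called gene, but the lists were chosen with earlier results of these data known, so this count is no result about them. For 10 tested genes of the ATF4 amino acid stress response, 10 were higher and 0 passed, with a median log2 fold change of 0.75, beside -0.18 without GABA. *Phgdh*, the first enzyme of serine synthesis, stood at 2.51 to 18.8 in WT and 7.21 to 25.4 in GABA-treated libraries (log2 fold change 1.08, edgeR adjusted p = 0.391), and *Asns*, asparagine synthetase, had 0.88 (edgeR adjusted p = 0.54). Without GABA these 2 genes had -0.28 and -0.64. *Slc7a11*, the member with the smallest p, had 1.18 beside 1.17 without GABA, and ran from 4.16 to 23.9 in GABA-treated libraries. GABA-treated replicates 1, 3 and 5 had 23.9, 23.4 and 17.1 of *Slc7a11*. Replicates 2, 4 and 6 had 5.05, 8.24 and 4.16, within the WT range of 3.16 to 8.72. *Atf4* itself had 0.25.

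Of 10 monocyte markers, 9 were higher, 0 passed, and the median was 0.60, beside 0.70 without GABA. Their sum had a median of 552 in WT, with 579 as the highest, and of 699.8 in GABA-treated libraries, all of which lay above every WT library. *Fn1*, fibronectin, was the most abundant, and *Plac8* stood at 40.1 to 116 and 87.6 to 163 (log2 fold change 0.78, edgeR adjusted p = 0.393). Sums of the macrophage markers overlapped between the groups, and 15 of 20 were lower with a median of -0.19. Of 16 tested genes of alternative activation, 12 were higher with a median of 0.64, beside 0.67 without GABA, and 0 passed. Their member *Lyve1* had 0 molecules in every WT library but replicate 6, at 2.18, and reached 10.1 and 10.8 in GABA-treated replicates 2 and 6. It was therefore tested only through *muMt*-/- libraries, which favours a rise, so no direction is read from this list.

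Of 36 cell cycle genes, 32 were lower, with a median of -0.35 beside -0.59 without GABA, and 0 passed. *Kif20a*, a kinesin of cytokinesis, and *Tk1*, thymidine kinase, did not overlap between the groups (2 of 36, beside 0.359% of all genes tested), and *Tk1* stood at 9.23 to 12.4 in WT and 4.03 to 9.14 in GABA-treated libraries (edgeR adjusted p = 0.391). *Top2a*, the most abundant, had 52.0 to 85.2 and 30.3 to 81.0. Of 81 tested cytosolic ribosomal protein genes, 55 were lower with a median of -0.11, beside -0.47 without GABA. Among them 3, *Rpl29*, *Rplp2* and *Rps29*, did not overlap, where 0.359% of all genes tested were lower without overlap, and 0 passed. Of 74 tested OXPHOS subunits the median was -0.11 beside -0.34, with *Cox5b* not overlapping (1 of 74, beside the same 0.359%). Without GABA-treated replicate 1 the median of cytosolic ribosomal proteins was -0.04, that of OXPHOS subunits -0.03 and that of the cell cycle genes -0.46.

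Lists that the study chose on these libraries are no independent evidence of direction. Of its 100 TNF targets 97 were higher and *Slc7a2* passed, with a median of 0.28 beside 0.67 without GABA. *Slc7a2*, *Cd82* and *Klf4* did not overlap with WT (3 of 100, beside 0.211% of all genes tested that were higher without overlap). Of its 25 OXPHOS genes, 23 were lower with a median of -0.17 beside -0.61, and 0 passed. Without GABA-treated replicate 1 the median of OXPHOS genes listed by the study was -0.10 and that of its TNF targets 0.28. A list of 40 TNF-induced genes written from general knowledge had 39 tested and a median of 0.07. Interferon-γ-induced genes had a median of -0.03, type I interferon-stimulated genes 0.12, IL-10 signalling genes 0.11 and MHC class II genes 0.08, with 0 calls in each. Of 25 GABA receptor, transport and metabolism genes, 0 reached a mean above 1, and 16 had 0 molecules in all TAM libraries.

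Lists of macrophage functions were read in the same way. Of 19 tested lysosomal genes 15 were lower with a median of -0.14, and 0 passed. Their most abundant member was *Ctss*, at 630 to 993 in WT and 287 to 928 in GABA-treated libraries, and *Grn*, progranulin, had 168 to 234 and 42.5 to 179. Of 11 tested complement genes 7 were lower with a median of -0.16. *C1qb*, a chain of the first complement component, stood at 352 to 471 in WT and 141 to 367 in GABA-treated libraries, with a log2 fold change of -0.48 (95% interval -0.82 to -0.14, edgeR adjusted p = 0.49). The lowest value of *Ctss*, *Grn* and *C1qb* was in each case that of GABA-treated replicate 1, the library with the highest share of *Rn45s*, and the next lowest were 496, 119.9 and 248. Without this library the median of the lysosomal enzymes and membrane proteins was -0.03 and that of the complement genes -0.10. The 6 Fc receptor genes had a median of -0.05, and 13 tested genes of lipid handling one of -0.10, and without the same library these were 0.06 and 0.03. Among the latter, *Trem2*, a lipid-sensing receptor, had -0.51 beside -1.11 without GABA.

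Lists of secreted factors and of metabolism were read next. The median was -0.19 over 18 tested chemokines, -0.03 over 14 tested matrix, TGF-β and angiogenic factors, and -0.13 over 13 heat shock chaperones. *Cxcl10*, an attractant of T cells, stood at 81.3 to 228 in WT and 50.8 to 166 in GABA-treated libraries (log2 fold change -0.64, edgeR adjusted p = 0.54), and *Spp1*, osteopontin, had -0.60 (edgeR adjusted p = 0.441). The chemokines with the smallest p lay the other way, *Ccl24* at 2.77 and *Ccl6* at 0.91 (95% interval 0.23 to 1.59, edgeR adjusted p = 0.527). At an unadjusted p under 0.05 in edgeR there were 4 higher and 3 lower of the 18 chemokines, beside 7.02% of all genes tested in either direction. Glycolysis and hypoxia genes, 23 tested, had a median of 0.21, with *Hk1*, a hexokinase, at 0.59 (95% interval 0.12 to 1.05). Folate and one-carbon enzymes, 11 tested, had a median of -0.33 beside -0.63 without GABA, with *Gart*, an enzyme of purine synthesis, at -0.72 (edgeR adjusted p = 0.685). With edgeR's filterByExpr the folate median was much smaller in size, as given with the processing below. None of the genes in these lists passed.

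Markers of further cell types were summed in the same way. Neutrophil markers stood at 6.82 to 38.3 in WT (median 8.70) and 7.97 to 22.1 in GABA-treated libraries (median 17.8), with WT replicate 5 at 38.3 and the next WT library at 17.4. Dendritic cell markers stood at 6.46 to 16.2 in WT (median 7.94) and 8.65 to 22.4 in GABA-treated libraries (median 15.3), with WT replicate 1 at 16.2 and the next WT library at 8.72. The groups overlapped in both. Of 9 dendritic cell markers, 3 were tested and all 3 were higher, with a median log2 fold change of 1.19 beside 1.05 without GABA, and 0 passed. The median is that of *Clec9a*, at 0 to 2.51 in WT and 0 to 4.58 in GABA-treated libraries. *Ccr7* reached 8.13 in GABA-treated replicate 3, with a group median of 0. Their WT means, 0.814 and 0.121, lay under the filter of 1. Both were therefore tested only through *muMt*-/- libraries, which favours a rise, so no direction is read from them. NK cell markers reached at most 0.789 in WT and 6.65 in GABA-treated libraries, and erythroid markers at most 0.726 and 8.13. Of 6 mast cell and eosinophil markers, 5 had 0 molecules in all TAM libraries. Of the genes that differ between the C57BL/6 substrains, *Nnt* stood at 0.923 to 3.41 in WT and 0 to 3.32 in GABA-treated libraries, *Cyfip2* at 1.71 to 10.7 and 4.99 to 11, and *Crb1* at 0. Whether these markers had a part in the called genes was not tested.

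**Figure D3:**
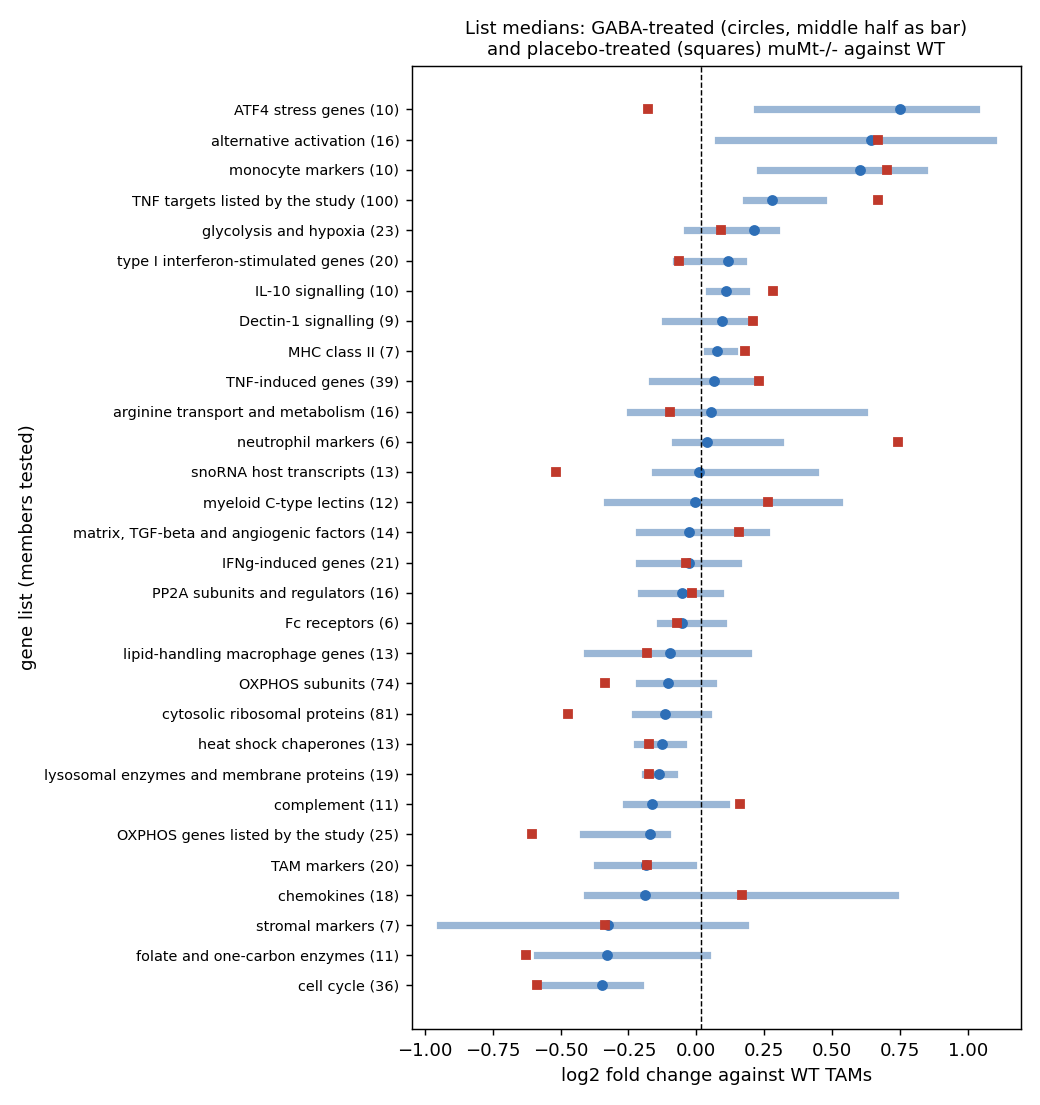
Median log2 fold change against WT TAMs (horizontal axis) of lists with 5 or more tested members, for GABA-treated (circles, with a bar from the lower to the upper quartile of the members) and placebo-treated *muMt*-/- TAMs (squares); the dashed line is the median of all genes tested, 0.02. ATF4 stress genes lie at 0.75 in GABA-treated and -0.18 in placebo-treated mice.

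Whether the difference from WT differed between TAMs and CD8+ T cells was tested in 6452 genes measured in both. *BC018473* passed (0.0155% of the genes), with a difference of -3.75 between the log2 fold changes (standard error 0.58, edgeR adjusted p = 9.82e-05), from -3.31 in TAMs and 0.44 in CD8+ T cells (standard error 0.48). In T cells the gene was near the floor, and its medians ran the other way from that fold change, at 7.27 in WT and 4.14 in GABA-treated mice, where the highest library reached 22.9. An unadjusted p under 0.05 was reached by 511 genes (7.92%). *Gm6654*, *Snora81*, *Fam126b*, *Phf3* and *Atf5* had the smallest p among genes with a higher difference in TAMs, and *Rpl28*, *Ftl1*, *Emp3* and *Ucp2* followed *BC018473* among those with a lower one. Of these, *Gm6654* had the smallest edgeR adjusted p, 0.0569, with 0.44 in TAMs and -1.07 in T cells. *Ftl1*, the ferritin light chain, had -0.21 in TAMs and 1.22 in T cells (edgeR adjusted p of the difference 0.128).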

How the data were processed

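The authors sorted 100 cells per mouse and labelled molecules with barcodes before amplification. They mapped reads with STAR to mm10 (the version is given in the study's methods and not in the labels). They deposited, for each gene, a count of barcoded molecules in which amplified copies are not included, without normalization. The table held 24781 rows, with 2 repeated names, and 0 columns were without a sample. Depth was 100254 to 304100 molecules in the 18 TAM libraries. Within a cell type, each library came from its own mouse.

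Counts were tested with edgeR 4.0.16 (quasi-likelihood F-test, TMM, 1 coefficient per group over 18 TAM libraries, or 36 for the interaction with cell type) with Benjamini-Hochberg adjustment, a threshold of 0.05 and a mean DESeq2-normalized number above 1. Normalized numbers and alternative tests came from DESeq2 1.42.0, in R 4.3.3. Depth was compared by exact permutation over all 924 arrangements of 6 against 6 (smallest p 0.0022), in Python 3.11.15. The edgeR steps were tested on simulated data. Coordinates are from RefSeq, in which 9435 of 9469 tested names were found. The members and lists were chosen with earlier results of these data known.

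Genes named were those with an adjusted p under 0.05, the 10 of each direction with the smallest unadjusted p that missed it and a mean of at least 5, the 5 largest rises and falls without GABA (only of called genes whose mean was at least 5), genes named by the study, the most abundant and 3 smallest-p members of each list, and 5 genes per direction of the interaction. *Ccdc36*, *Cd82*, *Klf4*, *Rplp2* and *Rps29* were named after their values were seen. Alternatives were other size factors, tools, thresholds, filters, samples, a block, a robust fit, a depth covariate and leaving out each library.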

Additional observations from a re-analysis of the deposited data

Results flagged for a closer look

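In 15 of 88 groups of 6 libraries looked at (17%), 1 library lay far from the others, where chance alone gives about 1 in 20. In GABA-treated *muMt*-/- TAMs, replicate 1 was high for *Gas5* (131 normalized molecules), *Clec7a* (393) and *Gdap10* (51.8). Replicate 2 was high for stromal markers (500) and *Igfbp7* (2.88), replicate 3 for erythroid markers (8.13), and replicate 6 low for B cell markers (0). In WT TAMs, replicate 5 was high for *Clec7a* (159), *Ccl24* (5.02), *Tiparp* (21.3), neutrophil markers (38.3) and mast cell and eosinophil markers (1.26). Replicate 6 was high for stromal markers (985) and erythroid markers (0.726), and replicate 1 for dendritic cell markers (16.2). The erythroid, mast cell and eosinophil, and B cell sums rest on few molecules.

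*BC018473* differed between cell types: its log2 fold change against WT was lower in TAMs than in CD8+ T cells by a difference of -3.75 (interaction test in edgeR, adjusted p = 9.82e-05).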

How the results depend on the processing

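Against 7 genes in the main comparison, edgeR gave 665 and DESeq2's Wald test 440 at an unadjusted p under 0.05, and DESeq2 gave 14 at an adjusted p. There were 2 with filterByExpr, 2 with a mean above 5, 63 with no filter and 4 with only the 12 libraries. Leaving out 1 library gave 2 to 9 genes. The number was 2 or 3 without WT replicates 1, 2, 3, 4 or 6 or GABA-treated replicates 1, 2 or 3. *BC018473* and *Mir6236* passed in all 22 alternatives with an adjusted p (up to 5.11e-10 and 0.0128), and *Slc7a2*, *Mir6240*, *Gas5*, *Clec7a* and *Ptpa* lost the call in 9, 14, 14, 14 and 16 alternatives without a change of sign. *Ptpa* had no adjusted p from DESeq2. A fit without GABA-treated replicate 1 and placebo replicate 4, chosen after seeing the data, gave 6 (4 shared). DESeq2's size factors gave 7 (7 shared), a robust fit 5 (5 shared) and log2 molecules as a covariate 7 (3 shared). The causes were not tested.

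With the replicate number as a block the main count was 6 (5 shared) and that of the interaction 3 (1 shared). Same-numbered WT and GABA-treated libraries correlated at -0.02 to 0.10 in their deviations. This was above the mean over other numbers in 5 of 6 cases, and 1 of 6 matched its own number best, so whether the numbers mark pairs was not settled. Same-numbered TAM and CD8+ T cell libraries were not checked for pairing. For the interaction with cell type, where 1 gene passed, DESeq2's size factors gave 2, a mean above 5 gave 2 and DESeq2's Wald test 3. Leaving out 1 library gave 1 to 3.

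The ratio of molecules was 0.773 to 0.865 without 1 library. It passed without WT replicate 2 (0.798, exact permutation p = 0.0455) and without GABA-treated replicate 2 (0.773, exact p = 0.013). The ratio of genes detected stayed at 0.968 to 0.988. Of 804 list medians recomputed, 800 moved by less than the SD between libraries, and with filterByExpr the arginine list's median was 0.41 and that of the folate list -0.05. The 5310 genes with a mean of at least 5 had a median standard error of 0.26, and all genes one of 0.35. Genes such as *Klf9* (log2 fold change 1.66, standard error 0.44) missed the threshold, so that differences several times the standard error can go undetected.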
